A study of Mus musculus with 9 samples.

Results

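Circular RNAs (circRNAs) of mouse liver were compared between mice given an overdose of acetaminophen (APAP) and mice given saline. The circRNAs described are those with back-splice reads in each of the 8 deeply read libraries of the study, 1487 of the 11312 circRNAs in the table (13.1%). They came from 984 host genes or gene groups, and 1416 were exonic, 56 intronic and 15 intergenic. All animals were wild-type C57 BL6 mice of 8 weeks and about 20 g. APAP mice received 500 mg/kg by intraperitoneal injection and livers were taken 6 hours later (3 libraries). A further group received 300 µg/kg dmPGE2, a stable analogue of prostaglandin E2, intraperitoneally 1 hour before the same dose of APAP (3 libraries). Control mice received saline (3 libraries). The dmPGE2+APAP group enters here to share the estimate of the spread, and its levels are given for the rings past the threshold. Animal numbers are not in the labels, and the p-values therefore cover only the spread among these libraries, which may be technical. APAP is turned into a reactive metabolite in the liver, and this dose is given as a model of liver injury. Whole liver was used, so fewer cells of a type and less RNA per cell cannot be told apart.

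A circRNA is made when the spliceosome joins the end of an exon to the start of the same or an earlier exon of the transcript, a step called back-splicing. The closed ring has no free ends, so exonucleases that trim linear RNA do not act on it, and rings outlast most mRNAs. Reads across the back-splice junction count the ring, while reads that stay on the linear side of its exon ends (non-junction reads) come largely from linear RNA of the host gene.

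Back-splice reads per library numbered 69268 to 109453 in APAP, 99102 to 120531 in dmPGE2+APAP, and 154449 and 129971 in control 1 and 2. Control 3 held 4362, and only 520 of the 1487 circRNAs had a read there. It was therefore left out of the tests below, and what its return changed is given with each kind of test. The median circRNA had 18 to 26 reads in an APAP library and 31 to 36 in control 1 and 2, so single low values carry a large counting error. Levels are given as CPM, the count scaled to 1000000 back-splice reads in a library, and thus say nothing of the total amount of circRNA per cell. Of marker genes for liver cell types, 11 of 16 for hepatocytes had rings, with summed levels of 15111.5 to 19840.4 CPM in APAP and 13461 and 15965 CPM in control 1 and 2. Most of this sum is 1 ring, that of Aass, with 12699.5 to 16767 CPM in APAP and 11143 and 13895 CPM in control 1 and 2. Ttr, Serpina1a, Glul, Ass1 and Fga were at 0. Rings of neutrophil and lymphocyte markers came from 4 of 16 genes and summed to between 0 and 267 CPM in APAP, against 58.3 and 46.2 CPM in control 1 and 2, with Ptprc, S100a8 and S100a9 at 0.

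By edgeR's quasi-likelihood test with Benjamini-Hochberg adjustment, 8 of 1487 circRNAs passed an adjusted p of 0.05 in APAP against control (0.538%). Of these, 3 were higher (0.202%) and 5 lower (0.336%). The higher rings came from Epha2, Insig2 and Ehbp1, and the lower from Rmdn2 (3 rings), Kcnn2 and Bckdhb. Without TMM scaling 8 passed, 4 higher and 4 lower, and 7 of them were the same rings. The Bckdhb ring lost the call there (edgeR adjusted p = 0.0625) and a ring of Csnk1g3 gained it (0.0472). The back-splice junctions of 6 of the rings called with TMM scaling are shown, because the reads across them are what was counted. The end of the last exon in the ring is in lower case and the start of its first exon in capitals, both read 5′ to 3′ on the host strand from GENCODE M21 transcripts of the GRCm38 build, which carry DNA letters. Each side has 20 bases, or 15 for Insig2, whose exon reaches outside the coding sequence.
Epha2 mmu_circ_0001290, chr4:141306514-141309080, plus strand: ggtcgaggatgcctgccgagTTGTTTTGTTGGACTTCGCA
Insig2 novel_circ_0006604, chr1:121319597-121319972, minus strand: gcggcacagcctcagGATTTCTGGTAGGTC
Ehbp1 mmu_circ_0000245, chr11:22053432-22068506, minus strand: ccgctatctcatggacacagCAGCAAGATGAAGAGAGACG
Rmdn2 novel_circ_0005331, chr17:79650302-79659473, plus strand: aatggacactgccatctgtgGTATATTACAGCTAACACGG
Rmdn2 novel_circ_0005332, chr17:79650302-79672573, plus strand: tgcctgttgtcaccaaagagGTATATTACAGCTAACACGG
Bckdhb novel_circ_0014841, chr9:83952524-83991822, plus strand: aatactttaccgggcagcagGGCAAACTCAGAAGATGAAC
The Rmdn2 junctions share their capitals, since both rings start with the same exon and end with different ones. The Insig2 ring is a single exon closed on itself.

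The Epha2 ring rose. Epha2 is a receptor tyrosine kinase for ephrins on neighbouring cells. Its ring of 2 exons had 543, 749 and 794 CPM in APAP, against 64.7 and 123 CPM in control 1 and 2. Every APAP library lay above both controls, with a log2 fold change of 2.85 ± 0.40 (SE, edgeR adjusted p = 2.75e-08), a 7.19-fold difference. Control 3 listed it at 0, and with that library put back the log2 fold change was 2.92 (edgeR adjusted p = 5.53e-06). It was called in all 8 fits that left out 1 library. In dmPGE2+APAP it stood at 904, 898 and 1002 CPM, and it was the 1 circRNA of 1487 to pass there against the same controls (0.0672%, log2 fold change 3.32, edgeR adjusted p = 1.45e-11).

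Insig2 and Ehbp1 gave the other higher rings. Insig2 encodes a membrane protein of the endoplasmic reticulum that, when sterols are plentiful, holds back the SREBP transcription factors of sterol synthesis. Its ring had 985, 1115 and 895 CPM in APAP, against 233 and 423 CPM in control 1 and 2, so the groups did not overlap. The log2 fold change was 1.58 ± 0.33 (SE, edgeR adjusted p = 0.000883), and dmPGE2+APAP lay between the groups at 614, 636 and 810.2 CPM. Control 3 gave 458.5 CPM from a library of few reads, and with it put back Insig2 no longer passed (adjusted p = 0.0517). Nor did it pass without control 1 (adjusted p = 0.244, log2 fold change 1.21 for Insig2). Ehbp1 encodes a protein that links endocytic vesicles to actin. Its ring of 5 exons had 1482, 2138 and 2223 CPM in APAP, against 842 and 1100.2 CPM in control 1 and 2. That made a log2 fold change of 0.96 ± 0.24 (SE, edgeR adjusted p = 0.0189). In dmPGE2+APAP it stood at 1369, 1261 and 1394 CPM. The Ehbp1 call ended without APAP 2, APAP 3, control 1, dmPGE2+APAP 2 or dmPGE2+APAP 3 (highest adjusted p 0.394) and with control 3 put back (0.187). The other 3 Ehbp1 rings tested had log2 fold changes of 0.42, -0.25 and -0.25, and none passed.

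**Figure D1:**
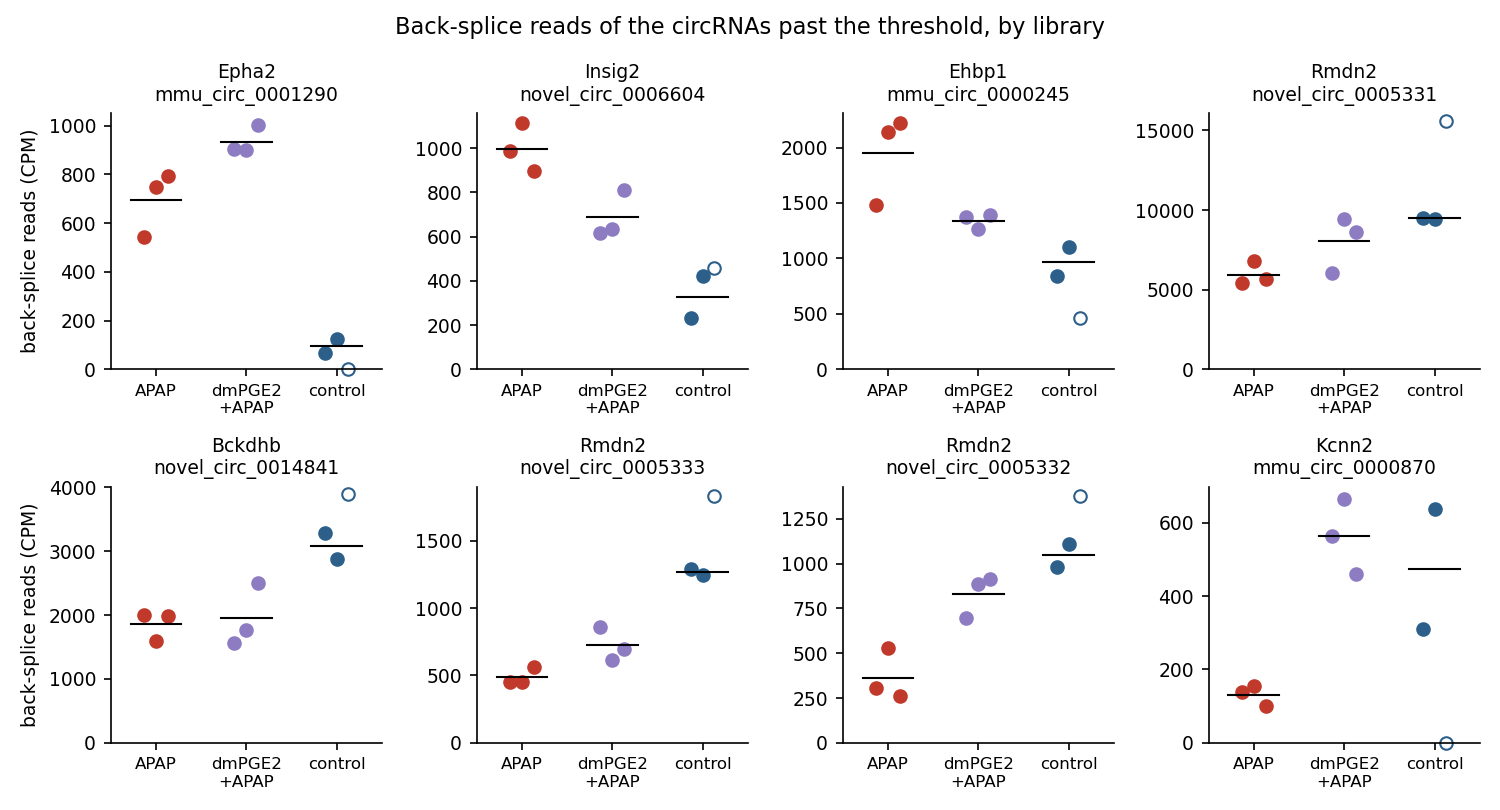
Back-splice reads (CPM) of the 8 circRNAs past the threshold, 1 panel each, with 1 point per library for APAP, dmPGE2+APAP and control. Bars are group means without control 3, which is the open circle. In each panel the APAP points lie on 1 side of control 1 and 2.

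All 3 tested rings of Rmdn2 fell. Rmdn2 belongs to a family of proteins named as regulators of microtubule dynamics. The most abundant of them, novel_circ_0005331 with 4 exons, was also among the most abundant rings of these livers. It had 5411, 6770.0 and 5645 CPM in APAP, against 9531 and 9425 CPM in control 1 and 2 (log2 fold change -0.71 ± 0.15 SE, edgeR adjusted p = 0.000883). The ring of 6 exons, novel_circ_0005332, fell further, with 304, 529.9 and 259.9 CPM in APAP against 984 and 1108 CPM in control 1 and 2. Its log2 fold change was -1.52 ± 0.31 (SE, edgeR adjusted p = 0.000883). The ring of 7 exons, novel_circ_0005333 (chr17:79650302-79681682), had 451, 448 and 563 CPM in APAP, against 1288 and 1246 CPM in control 1 and 2. Its log2 fold change was -1.43 ± 0.29 (SE, edgeR adjusted p = 0.000883). No ring overlapped between the groups, and control 3 (15589, 1376 and 1834 CPM in the order given) lay on the control side for each. Put back, control 3 left log2 fold changes of -0.62, -1.43 and -1.35, none passing (adjusted p = 0.718, 0.102 and 0.105). The rings of 6 and 7 exons were called in all 8 fits without 1 library and the ring of 4 exons in 7, missing without control 1 (adjusted p = 0.0552). In dmPGE2+APAP the ring of 4 exons had 6048, 9445 and 8650.5 CPM, that of 6 exons 697, 888 and 915 CPM, and that of 7 exons 863, 615.5 and 697 CPM. These 3 rings had log2 fold changes of -0.24, -0.33 and -0.80 against control, and none passed. The difference between the treated groups was not tested here.

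Kcnn2 and Bckdhb gave the remaining lower rings. Kcnn2 encodes a potassium channel opened by calcium, and its ring (mmu_circ_0000870) is 1 exon. It had 138, 155 and 101 CPM in APAP, against 311 and 639 CPM in control 1 and 2, which made it lower in every APAP library. The log2 fold change was -1.84 ± 0.45 (SE, edgeR adjusted p = 0.0140). The control libraries differ widely from each other, control 3 listed the ring at 0, and the call ended with control 3 put back (adjusted p = 0.352). It also ended without APAP 3, control 2 or dmPGE2+APAP 2 (highest adjusted p 0.651). In dmPGE2+APAP it stood at 564, 666 and 462 CPM. Bckdhb encodes a subunit of the mitochondrial complex that breaks down branched-chain amino acids. Its ring of 7 exons, novel_circ_0014841, had 2006, 1599 and 1992 CPM in APAP, against 3283 and 2885 CPM in control 1 and 2 (log2 fold change -0.77 ± 0.20 SE, edgeR adjusted p = 0.0351). In dmPGE2+APAP it had 1568, 1766 and 2509 CPM. The Bckdhb call held in 2 of the 8 fits without 1 library and ended with control 3 put back (adjusted p = 0.718). The main ring of the same gene, mmu_circ_0001822 (chr9:83988776-84012619), did not pass. It had 5954, 5336 and 5789 CPM in APAP, against 5257 and 5855 CPM in control 1 and 2, a log2 fold change of -0.0039 ± 0.16 (SE).

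The Bckdhb ring novel_circ_0014841 was the last inside the threshold (edgeR adjusted p = 0.0351), and a ring of the casein kinase gene Csnk1g3 was the first outside (edgeR adjusted p = 0.0529). The Csnk1g3 ring, mmu_circ_0000872, had 718, 850 and 664 CPM in APAP, against 382 and 200.045 CPM in control 1 and 2. Of the 11 further rings with the smallest p after it, 7 had positive log2 fold changes and 4 negative, and none passed. A pair of rings from Arhgap10, which encodes a GTPase-activating protein, had log2 fold changes of 2.53 ± 0.71 and 1.16 ± 0.35 (SE, edgeR adjusted p = 0.0657 and 0.111). A ring of Psd3, an exchange factor for Arf GTPases, had 64.4, 36.5 and 57.7 CPM in APAP, against 259 and 246 CPM in control 1 and 2, a log2 fold change of -2.28 ± 0.67 (SE, edgeR adjusted p = 0.0940). Rings of Banp, Rabep1, Tmtc2, Snx29 and Rabgef1 had log2 fold changes of 2.02, 2.45, 1.20, 1.13 and 0.79. Those of Acsm1, Slco1b2 and Glt1d1 had -1.25, -0.79 and -0.61.

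Over all 1487 circRNAs the median log2 fold change was 0.02, and 146 had an unadjusted p under 0.05. CPM ranges of APAP and of control 1 and 2 lay apart in 342 circRNAs (23%), with APAP above in 194 (13%) and below in 148 (9.95%). Of the 8 most abundant rings, only that of Rmdn2 passed. The ring of Rnf169, a ubiquitin ligase of DNA repair, had 21469, 24047 and 24080.4 CPM in APAP, against 20026 and 21243 CPM in control 1 and 2 (log2 fold change 0.13 ± 0.11 SE). The ring of Gigyf2, a translational repressor, had 12819, 12964.5 and 12791 CPM in APAP, against 12929.8 and 13434 CPM in control 1 and 2 (log2 fold change -0.07 ± 0.13 SE). Rings of Aass, Tmem56, Nfix, Ttc39c and Alg12 had log2 fold changes of 0.16, -0.33, -0.14, -0.09 and -0.06. The plot of fold change by level shows the spread of the low rings, where log2 fold changes beyond 1 in either direction did not pass.

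**Figure D2:**
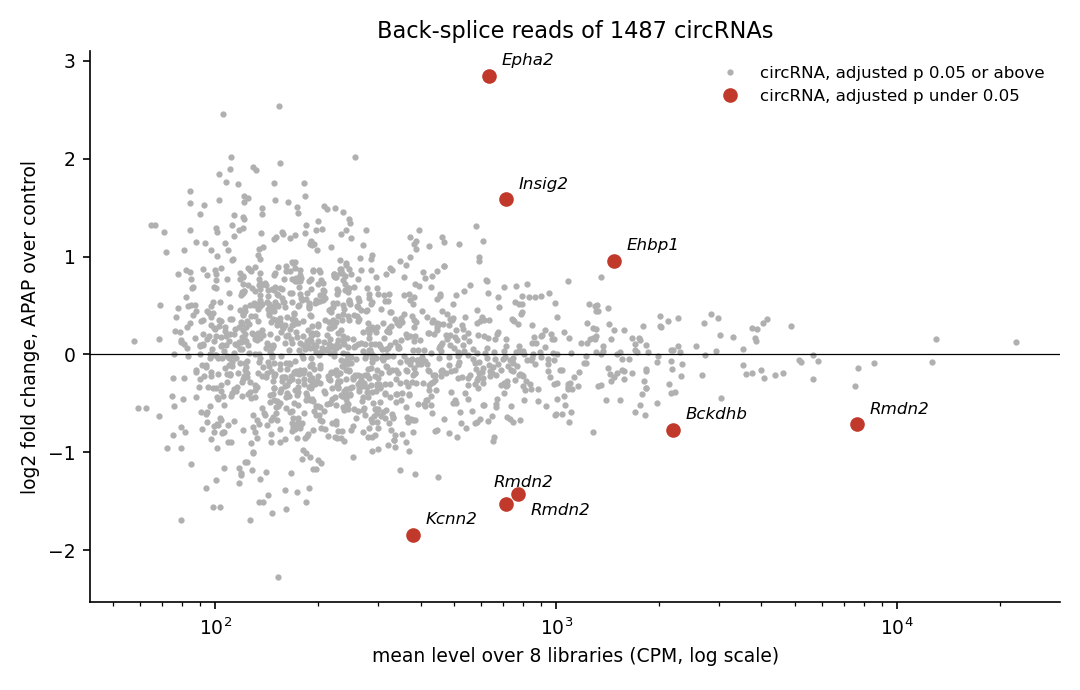
Log2 fold change of APAP over control (vertical) by mean CPM over the 8 libraries (horizontal, log scale), 1 point per circRNA, n = 1487. The 8 circRNAs past the threshold are in red, from Epha2 at 2.85 to Kcnn2 at -1.84.

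Summing all rings of a host gene asks whether the ring output of the gene differed. Of 1169 host genes with reads in the 8 libraries, 10 passed (0.855%), 5 higher and 5 lower (0.428% each). Without TMM scaling 7 passed, 5 higher and 2 lower. Besides Epha2, Insig2, Ehbp1, Rmdn2 and Kcnn2, the sum called Arhgap10 and Rsu1 higher, and Slco1b2, Acsm1 and Glt1d1 lower. Arhgap10 summed over 11 rings to 1831, 2439 and 1891 CPM in APAP, against 809 and 515.5 CPM in control 1 and 2. Its log2 fold change of 1.58 ± 0.26 (SE, edgeR adjusted p = 3.2e-06) passed in all 8 fits without 1 library and with control 3 put back (adjusted p = 0.000746). All 4 Arhgap10 rings tested had positive log2 fold changes, 2.53, 1.32, 1.23 and 1.16 for novel_circ_0013830, novel_circ_0013831, novel_circ_0013835 and mmu_circ_0001692. Rmdn2 summed over 6 rings to 6285, 7903 and 6540 CPM in APAP, against 12082 and 11933 CPM in control 1 and 2 (log2 fold change -0.84 ± 0.12 SE, edgeR adjusted p = 2.74e-07). It too passed in all 8 such fits and with control 3 put back (adjusted p = 0.0035), as did Epha2 (8.48e-05).

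The other host sums held less well. Rsu1, which encodes a protein of integrin adhesions, had no ring in the tested set and summed over 3 rings to 469, 228 and 375 CPM in APAP, against 32.4 and 61.6 CPM in control 1 and 2. The log2 fold change was 2.87 ± 0.74 (SE, edgeR adjusted p = 0.0273), called in 3 of 8 fits without 1 library. Slco1b2, the uptake carrier of hepatocytes for bile acids and drugs, summed over 9 rings to 2531, 2248 and 2223 CPM in APAP, against 3451 and 3932 CPM in control 1 and 2. It had a log2 fold change of -0.70 ± 0.17 (SE, edgeR adjusted p = 0.0187), and 3 of its 4 tested rings had negative values. The Slco1b2 call held in 5 of 8 fits, ending without APAP 3, control 1 or control 2. Acsm1, a mitochondrial ligase that activates medium-chain fatty acids, stood at 451, 329 and 361 CPM in APAP, against 855 and 993 CPM in control 1 and 2. Its log2 fold change of -1.32 ± 0.35 (SE, edgeR adjusted p = 0.0427) was called in 2 of 8 fits. Glt1d1, a glycosyltransferase-like gene, had 3617, 4705 and 2988 CPM in APAP, against 4785 and 6186 CPM in control 1 and 2. APAP 2 stood just under control 1 there, and the log2 fold change of -0.58 ± 0.16 (SE, edgeR adjusted p = 0.0494) was called in 1 of 8 fits. The sums of Kcnn2 and Ehbp1 were called in 2 and 1 of these fits. With control 3 put back, Epha2, Rmdn2 and Arhgap10 were the host sums that passed.

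Rings were then grouped by the number of exons the table gives them. Most had few, with a median of 3 and at most 9. The transcripts that gave the junctions above can hold another number between the same ends. They held 5 exons for the Bckdhb ring listed with 7 and 6 for the Ehbp1 ring listed with 5. For the Rmdn2 rings listed with 6 and 4 they held 8 and 3. Counted by transcript, the Ehbp1 ring would fall among rings of 6 or more exons and the Bckdhb ring among those of 2 to 5. The 131 rings of 1 exon had a median log2 fold change of 0.14, the 1248 rings of 2 to 5 exons 0.03, and the 37 rings of 6 or more exons -0.21, beside 0.02 over all members. By single number the medians were 0.14, 0.10, 0.10, -0.09, -0.12 and -0.21 for 1 to 6 exons, then 0.16 for the 6 rings of 7 exons and -0.22 for the single ring of 9. Rings of 6 or more exons held 3 of the 8 calls, all lower, 2 of them from Rmdn2 and 1 from Bckdhb. That is 8.11% of this group, beside 0.538% of all circRNAs, but the Rmdn2 rings overlap and share their start. They were also the more abundant, with a median of 641 CPM against 230 CPM for rings of 2 to 5 exons, so their values carry less counting error. Their share of the back-splice reads of exonic members was 8.20%, 7.53% and 7.34% in APAP, against 8.17% and 8.78% in control 1 and 2. The means of 7.69% ± 0.45 (SD, n = 3) and 8.47% ± 0.43 (SD, n = 2) differed by less than 1 percentage point (exact permutation p = 0.3, two-sided, where 3 against 2 cannot go below 0.1). Over all exonic circRNAs in the table the difference was -0.56 percentage points (exact permutation p = 0.1, the smallest possible). Rings of 1 exon held 8.59% ± 0.079 in APAP and 8.51% ± 0.19 in control (exact permutation p = 0.6), and rings of 2 to 5 exons 83.7% ± 0.52 in APAP and 83.0% ± 0.63 in control (exact permutation p = 0.3). With control 3 put back the median of rings of 6 or more exons was -0.04, while that of all members was 0.13.

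**Figure D3:**
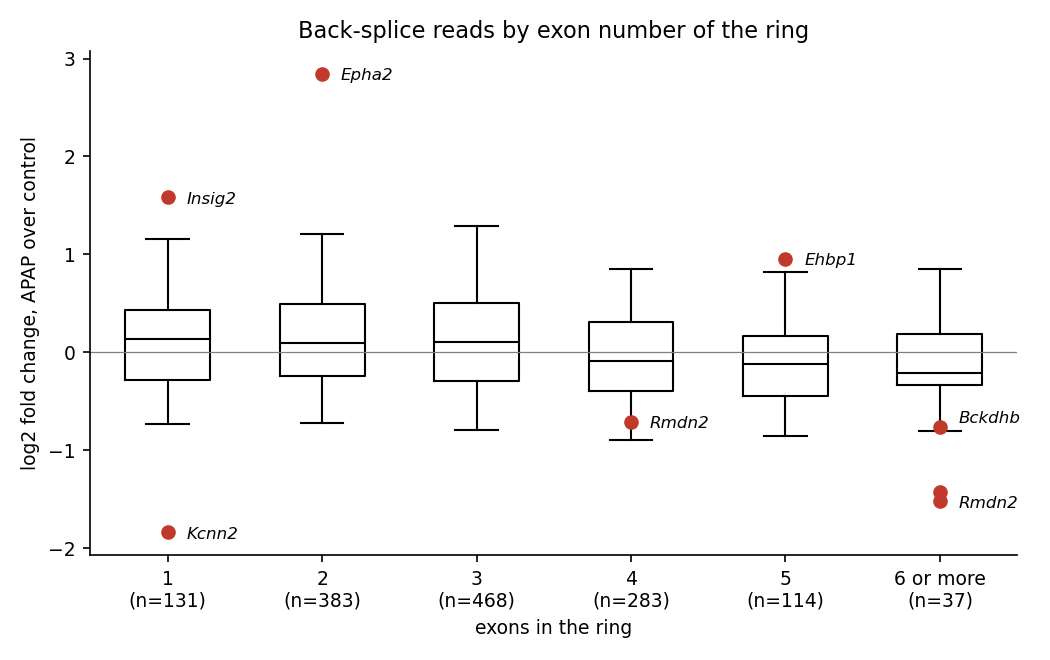
Log2 fold change of back-splice reads, APAP over control (vertical), by exons in the ring (horizontal) for the 1416 exonic circRNAs. Boxes are quartiles with the median, whiskers the 5th and 95th percentiles, and red points the 8 circRNAs past the threshold. Medians lie at 0.14 for 1 exon and -0.21 for 6 or more.

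Host function was described over 19 gene lists that together held 253 of the 1487 circRNAs. They are given as counts and medians beside the median of 0.02 over all circRNAs, and 766 of 1487 values were positive. Rings of drug and xenobiotic metabolism genes numbered 18 from 9 hosts, 12 of them with negative log2 fold changes, a median of -0.41 and none called. In this list the ring of Slco1b2 (novel_circ_0011962) had 1113, 1014 and 1083 CPM in APAP, against 1819 and 1793 CPM in control 1 and 2. The ring of Abcc2, the export pump for conjugated bilirubin and drug conjugates, overlapped between the groups with 1362, 1910 and 2079 CPM in APAP, against 2046 and 2308 CPM in control 1 and 2. Rings of mitochondrial and amino acid catabolism genes numbered 28, with 19 negative, a median of -0.14 and 1 called lower (Bckdhb). Here the ring of Aass, an enzyme of lysine breakdown, and that of Hibadh, an enzyme of valine breakdown, had log2 fold changes of 0.16 ± 0.13 and -0.22 ± 0.20 (SE). Rings of lipid, sterol and bile acid genes numbered 33, with 18 positive, a median of 0.03 and 1 called higher (Insig2). That of Nr1h4, the bile acid receptor FXR, had -0.21 ± 0.17, and that of Acaca, an enzyme of fatty acid synthesis, 0.59 ± 0.29 (log2 fold change, SE).

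Glutathione and NRF2 genes, which answer the reactive metabolite of APAP, had 2 rings in the set. The ring of Gclc, from the gene for the catalytic subunit of the rate-limiting enzyme of glutathione synthesis, had 874, 713 and 1285 CPM in APAP, against 596 and 685 CPM in control 1 and 2. The ring of Bach1, a repressor of NRF2 targets, had 387, 539 and 433 CPM in APAP, against 188 and 308 CPM in control 1 and 2. Both had every APAP library above control 1 and 2, as did 194 of all 1487 circRNAs (13%). The log2 fold changes of the Gclc and Bach1 rings were 0.52 ± 0.30 and 0.84 ± 0.43 (SE), and neither passed. Stress kinase, unfolded protein response and cell death genes had 11 rings, 8 negative, with a median of -0.19 and none called. Of these Ern1, a sensor of unfolded proteins, had 0.92 ± 0.46, and Casp8, an initiator caspase, -0.66 ± 0.37 (log2 fold change, SE). Inflammation and acute phase genes had 6 rings, 5 negative, a median of -0.32 and none called. The Crp ring of the acute phase gene, which is intronic, had 773, 822 and 1039 CPM in APAP, against 1204 and 1385 CPM in control 1 and 2.

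Of the lists of regulators, adhesion and cytoskeleton genes had 32 rings, 14 positive, a median of -0.01 and 1 called higher (Epha2). Chromatin regulators had 45 rings, 28 positive, a median of 0.16 and none called. Ubiquitin ligases and deubiquitinases had 32 rings, 17 positive, with a median of 0.06 and none called. Splicing and circRNA handling factors had 18 rings, 9 positive, a median of -0.03 and none called. Their most abundant ring, from the splicing repressor gene Ptbp3, had 1840, 2248 and 2469 CPM in APAP, against 1612 and 1616 CPM in control 1 and 2. Ion channel and calcium genes had 7 rings, 3 positive, a median of -0.19 and 1 called lower (Kcnn2). Cyclic nucleotide signalling had 7 rings, 2 positive, a median of -0.17 and none called. Here the ring of Akap7, an anchor of protein kinase A, had 515, 585 and 491 CPM in APAP, against 272 and 192 CPM in control 1 and 2. Secreted plasma proteins had 8 rings, 4 positive, a median of -0.05 and none called.

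Among cell type lists, hepatocyte hosts had 5 rings with a median of 0.16, Kupffer cell and macrophage hosts 4 with -0.27, and sinusoidal endothelial hosts 3 with 0.01, none called. The leukocyte, stellate cell and cholangiocyte lists had no ring in the set. The ring of Adgre1, the macrophage marker F4/80, had 497, 302 and 86.6 CPM in APAP, against 414 and 631 CPM in control 1 and 2. APAP 3 was the lowest of the 8 libraries for it, and also for the ring of Mrc1, the mannose receptor, at 491 CPM beside 1564 and 1389 CPM in APAP 1 and 2 and 1237 and 1223 CPM in control 1 and 2. The Cyp1a2 ring of the hepatocyte list also had its lowest value in APAP 3, at 346 CPM, while the rings of Aass, Tat, Mertk and Plpp3 did not. The rings of Mertk, a receptor of macrophages, had log2 fold changes of 0.26 ± 0.50 and -0.22 ± 0.52 (SE), with APAP 3 within the range of the other libraries or highest of the APAP libraries. The rings of Plpp3 had 0.82 ± 0.59 and 0.01 ± 0.39 (log2 fold change, SE). Summed over the whole table, rings of Kupffer cell and macrophage markers came from 2 of 12 genes and stood at 765 to 1702 CPM in APAP, against 1437 and 1462 CPM in control 1 and 2. Clec4f, Vsig4 and Timd4 were at 0. Rings of sinusoidal endothelial markers (8 of 15 genes) stood at 1516 to 3009 CPM in APAP, against 2732 and 2577.5 CPM, with Lyve1 and Clec4g at 0. APAP 3 was the lowest of the 8 libraries in the macrophage and sinusoidal sums, but not in the sums of the other cell types. Stellate cell markers (2 of 15 genes) stood at 72.2 to 258 CPM in APAP, against 104 and 415 CPM, and cholangiocyte markers (1 of 11) at 183 to 331 CPM in APAP, against 97.1 and 231 CPM. The part of cell makeup in the results was not tested. Ehbp1 and Rmdn2 are in none of the lists.

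Non-junction reads were compared next. A spreadsheet step had turned this list of values into a single number in 362 of the 1487 circRNAs (24.3%), and those were left out. A list turns only where its values after the first have 3 digits each, so the 1125 sites kept leave out many with 100 or more non-junction reads throughout. Of 1078 sites with non-junction reads in the 8 libraries, 34 passed (3.15%), 23 higher (2.13%) and 11 lower (1.02%), in 32 host genes. Of the 34, 4 were also called in back-splice reads, the Epha2 ring and the 3 Rmdn2 rings. Epha2 had 543, 413 and 445 non-junction reads in APAP, against 98 and 115 in control 1 and 2, a log2 fold change of 2.26 ± 0.28 (SE, edgeR adjusted p = 7.42e-13). Rmdn2 had 168, 199 and 76 in APAP, against 439 and 459 in control 1 and 2, at the ring of 4 exons (log2 fold change -1.46 ± 0.26 SE, edgeR adjusted p = 1.02e-05). The other Rmdn2 sites had -1.24 and -1.38, both not passing without control 2. The Rmdn2 sites share an end, so their non-junction reads are in part the same reads. The other end of the ring of 4 exons lies inside the longer Rmdn2 rings. Its non-junction reads can therefore come in part from those rings and not only from linear RNA. With control 3 put back 383 sites could be tested and 0 passed (edgeR, 42 at an unadjusted p under 0.05), and the Rmdn2 ring of 4 exons had an adjusted p of 0.517. The Epha2 site was not among those tested then.

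At the other sites called higher in non-junction reads after APAP, the ring did not pass. The 23 higher sites had a median log2 fold change of 1.56 in non-junction reads and 0.04 in back-splice reads, and 14 were positive in both. Sites called higher or lower were chosen by their non-junction values, and some of their rings had few reads, such as 5 to 13 per library for Scap. Medians of the read kinds side by side are thus no test of a difference between them. Clpx, the ATPase of a mitochondrial protease, had 168, 161 and 85 non-junction reads in APAP, against 68 and 27 in control 1 and 2 (log2 fold change 1.69 ± 0.33 SE, edgeR adjusted p = 0.000116). Its ring had 147, 137 and 130 CPM in APAP, against 104 and 192 CPM in control 1 and 2, so there the groups overlapped. Stk40, a kinase-like gene, had 202, 123 and 269 non-junction reads in APAP, against 97 and 50 in control 1 and 2 (log2 fold change 1.58 ± 0.31 SE, edgeR adjusted p = 0.000123). The Stk40 ring overlapped between the groups, with a log2 fold change of 0.54 ± 0.64 (SE).

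Mdm2, the ubiquitin ligase of p53, had 165, 90 and 143 non-junction reads in APAP, against 41 and 57 in control 1 and 2 (log2 fold change 1.56 ± 0.35 SE, edgeR adjusted p = 0.00114). Its ring was also above both controls in each APAP library, at 294, 612 and 751 CPM in APAP against 233 and 254 CPM in control 1 and 2, but did not pass (log2 fold change 1.11 ± 0.43 SE). Scap, the escort of the SREBP factors that INSIG proteins hold back, had 311, 257 and 217 non-junction reads in APAP, against 99 and 149 in control 1 and 2 (log2 fold change 1.20 ± 0.28 SE, edgeR adjusted p = 0.00235). The Scap ring had a log2 fold change of 0.50 ± 0.69 (SE). Nsd3, a histone methyltransferase, Ablim3, an actin-binding protein, and 4930402H24Rik rose in non-junction reads by log2 fold changes of 2.27, 1.67 and 1.95. Their rings had -0.32 ± 0.59, -0.67 ± 0.43 and 0.44 ± 0.65 (SE). These 7 sites, unlike Epha2, lost the call without control 1 (Mdm2, Scap, Nsd3, Ablim3 and 4930402H24Rik) or without control 2 (Stk40, and likewise Clpx).

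The 11 lower sites had a median log2 fold change of -1.24 in non-junction reads and -0.65 in back-splice reads, and 10 were negative in both. Gpcpd1, an enzyme of glycerophosphocholine breakdown, had 157, 68 and 99 non-junction reads in APAP, against 355 and 237 in control 1 and 2 (log2 fold change -1.32 ± 0.28 SE, edgeR adjusted p = 0.000392). Its ring had a log2 fold change of -0.01 ± 0.62 (SE). Rab11a, a GTPase of recycling endosomes, Arl13b, a GTPase of cilia, Dcun1d4, a factor of neddylation, and 9030622O22Rik fell in non-junction reads by log2 fold changes of -1.21, -2.40, -1.06 and -1.23. Their rings had -0.25, -0.49, -1.58 and -0.65, and none passed. Rab11a, Arl13b and Dcun1d4 were called in non-junction reads in 5 of 8 fits without 1 library, each missing without control 1. Gpcpd1 and 9030622O22Rik also lost the call without control 1. Across the 1078 sites the log2 fold changes of the 2 read kinds had the same sign in 54.8%, with a Pearson correlation of 0.157. Ranges of APAP and of control 1 and 2 lay apart in 339 sites (31.4%), 174 higher (16.1%) and 165 lower (15.3%). These are descriptions across sites, which share libraries and in part reads.

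**Figure D4:**
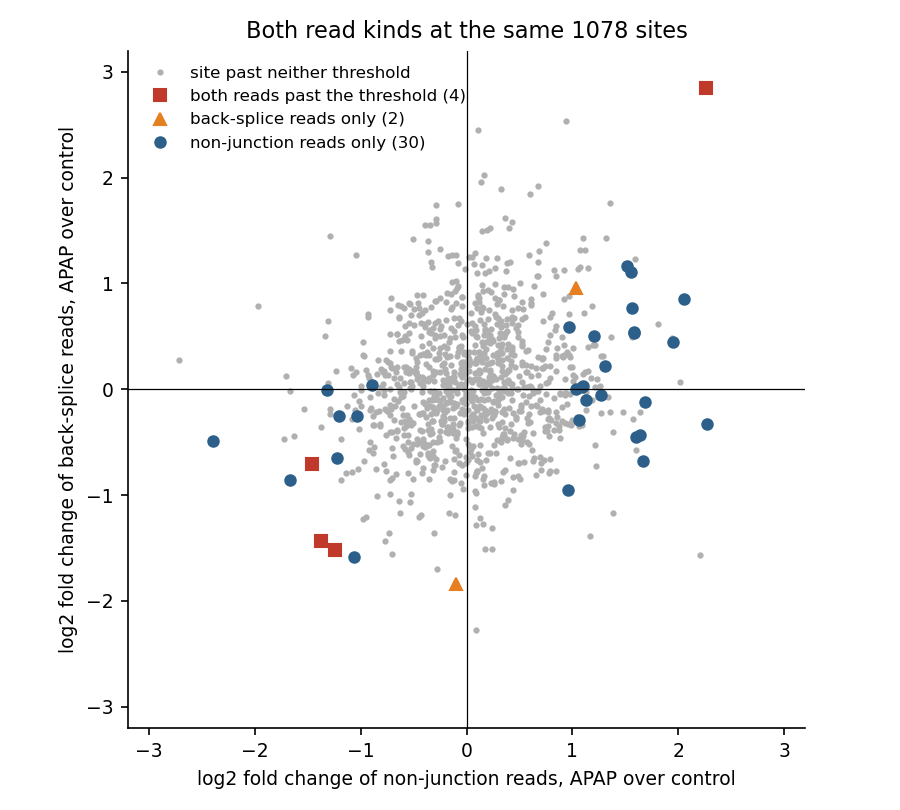
Log2 fold change of back-splice reads (vertical) against that of non-junction reads (horizontal), both APAP over control, 1 point per site, n = 1078. The 4 sites past both thresholds are 1 Epha2 ring at the upper right and 3 Rmdn2 rings at the lower left, and 30 sites passed in non-junction reads alone.

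In 263 of the left-out lists the 15 digits that the spreadsheet had kept could be read as 3 digits for each of APAP 1 to 3 and control 1 and 2. This reading, an alternative chosen after seeing the data, assumes that each value had 3 digits. With these sites added, and 5 libraries in the fit, 59 of 1352 sites passed (4.36%), 39 higher (2.88%) and 20 lower (1.48%). Of these, 26 came from such lists, 17 higher and 9 lower. Gclc had 668, 553 and 770 non-junction reads in APAP, against 295 and 266 in control 1 and 2 (log2 fold change 1.36, edgeR adjusted p = 3.76e-06). Cyp1a2, a cytochrome that oxidises APAP, had 615, 576 and 674 in APAP, against 338 and 190 in control 1 and 2 (log2 fold change 1.37, edgeR adjusted p = 3.76e-06), while its ring had a log2 fold change of -0.59 ± 0.35 (SE). Insig2 rose in non-junction reads as in its ring, with 597, 472 and 289 in APAP against 232 and 202 in control 1 and 2 (log2 fold change 1.18, edgeR adjusted p = 0.00043). At the main Bckdhb ring non-junction reads fell to 345, 380 and 317 in APAP, against 666 and 660 in control 1 and 2 (log2 fold change -0.81, edgeR adjusted p = 0.0152). At the called Bckdhb ring of 7 exons the log2 fold change was -0.46 and did not pass (edgeR adjusted p = 0.232).

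The share of the circular form was taken as back-splice reads times 2, over that number plus the non-junction reads, since a linear transcript can be read at both ends of the ring. Pooled over the 1125 circRNAs, it was 61.1%, 64.2% and 54.8% in APAP, 62.7%, 61.2% and 63.2% in dmPGE2+APAP, and 67.5% and 66.4% in control 1 and 2. Every APAP library lay below both controls, with a mean of 60.0% ± 4.77 (SD, n = 3) against 66.9% ± 0.81 (SD, n = 2). The difference of -6.89 percentage points gave an exact permutation p of 0.2 (two-sided, smallest possible 0.1). Without APAP 3 it was -4.29 percentage points. APAP 3 had the fewest back-splice reads of the 8 libraries and the lowest share, and control 1 and 2 had the most back-splice reads. Those reads are themselves part of the share. Non-junction reads over the same 1125 circRNAs were 66694, 59752 and 61061 in APAP, against 71457 and 65735 in control 1 and 2, so the libraries ranked otherwise by them. Whether depth plays a part in the difference was not tested. Over the 391 circRNAs with values in all 9 libraries control 3 stood at 6.14%, against 66.1% to 75.7% in the others, and with it the mean of APAP was 17.9 percentage points above that of control (exact permutation p = 1). The plot of the share by library shows APAP below control 1 and 2 both in the pooled share and in the median of the circRNAs.

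**Figure D5:**
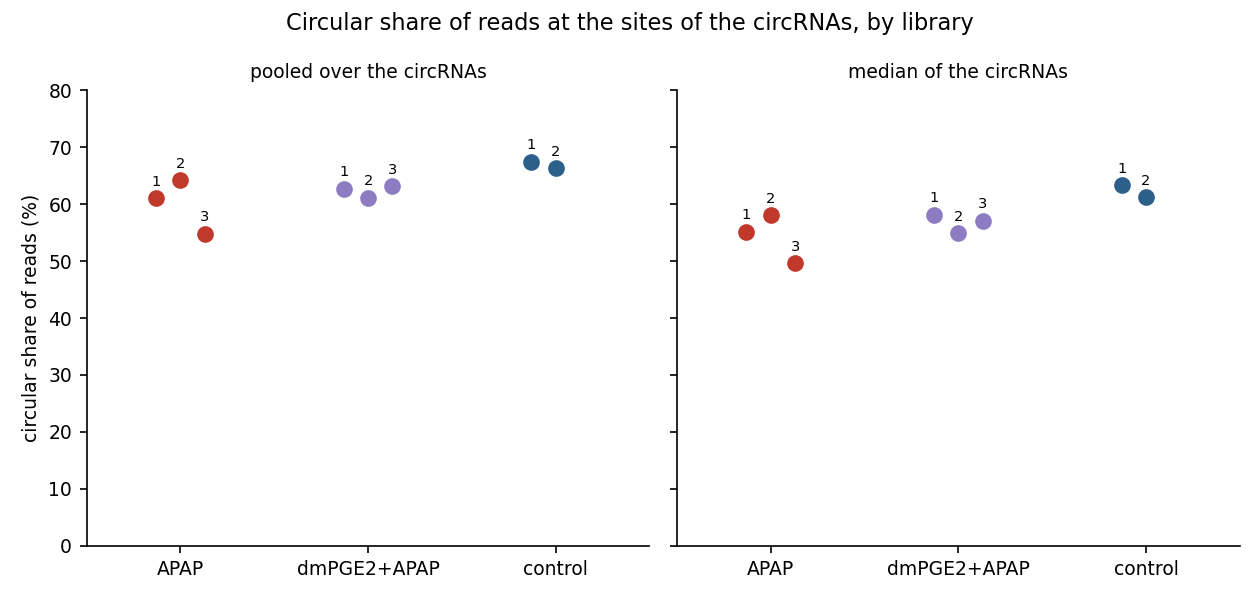
Circular share of reads (%) by library for APAP, dmPGE2+APAP and control 1 and 2, pooled over the circRNAs (left) and as the median of the circRNAs (right). Numbers are the libraries. In the pooled share APAP lies at 54.8% to 64.2% and control 1 and 2 at 67.5% and 66.4%.

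Per circRNA, the ratio of back-splice to non-junction reads was lower in APAP in 767 of 1095 (70.05%), with a median log2 difference of -0.41. The ranges of the share lay apart in 300 (27.4%), 243 lower (22.2%) and 57 higher (5.21%). By limma with Benjamini-Hochberg adjustment, 1 of 1095 passed (0.0913%). It is mmu_circ_0000345 of Rab10os, a transcript antisense to Rab10, whose circular share was 29.0%, 34.8% and 37.5% in APAP, against 91.7% and 87.3% in control 1 and 2 (log2 ratio difference -3.92 ± 0.55 SE, limma adjusted p = 0.0125). Its non-junction reads were 44, 30 and 10 in APAP, against 6 and 7 in control 1 and 2, while the ring had 82.8, 73.1 and 43.3 CPM in APAP, against 214 and 185 CPM. The counts are small, the labels give no strand rule for counting, and reads of Rab10 cannot be told apart there. The Rab10os call ended without APAP 1, control 1 or control 2, with a replicate block (limma adjusted p = 0.105) and with APAP and control libraries alone (0.0573), and with control 3 put back 0 of 384 ratios passed (limma, 6 at an unadjusted p under 0.05). An edgeR fit of both read kinds did not call it (adjusted p = 0.0517) and called the Ablim3 ring instead (0.0319). Next and not passing by limma were rings of Zfp141, Sap130, Nsd3, Mob3b and Ablim3, all with lower shares in APAP (log2 ratio differences -4.37, -4.85, -2.93, -2.44 and -2.99). Zfp141 had 7, 11 and 21 non-junction reads in APAP, against 3 and 0 in control 1 and 2. Sap130 had 4, 6 and 12 in APAP, against 0 in both. The size of these differences therefore depends on the 0.5 added to each count.

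Of the 8 called rings, 6 had a ratio and none passed in it. Epha2 had a circular share of 17.9%, 28.4% and 19.8% in APAP, against 16.9% and 21.8% in control 1 and 2 (log2 ratio difference 0.18 ± 0.57 SE). The Rmdn2 ring of 4 exons had 87.5%, 88.2% and 91.1% in APAP, against 87.0% and 84.2% in control 1 and 2 (log2 ratio difference 0.44 ± 0.54 SE). Reads of the longer Rmdn2 rings can enter its non-junction reads, so this share does not set circular against linear RNA alone. The Rmdn2 rings of 6 and 7 exons had log2 ratio differences of -0.78 ± 0.55 and -0.45 ± 0.59 (SE). For the ring of 6 exons the share was 50.4%, 53.7% and 41.4% in APAP, against 68.6% and 54.96% in control 1 and 2. The Kcnn2 ring had 73.2%, 64.2% and 31.8% in APAP, against 89.7% and 82.2% in control 1 and 2, with 11, 19 and 30 non-junction reads in APAP, against 11 and 36 (log2 ratio difference -2.22 ± 0.71 SE, not passing). The Ehbp1 ring was the prevailing form at its sites, with 93.6%, 97.3% and 96.9% in APAP, against 95.6% and 98.6% in control 1 and 2. The Psd3 ring named above had 12.4%, 9.52% and 8.60% in APAP, against 44.4% in both control 1 and 2, with non-junction reads of 99, 76 and 85 in APAP against 100 and 80 (limma adjusted p = 0.157).

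Split by the mean circular share, 321 circRNAs under 40% had a median back-splice log2 fold change of 0.09, 438 between 40% and 70% had 0.06, and 336 of 70% or more had -0.02. The last group was also the most abundant, with a median of 579 CPM against 141 CPM in the first. The median log2 ratio difference was -0.34, -0.41 and -0.47 in these groups, so a lower ratio in APAP was the more frequent direction in each, at 67.3%, 73.1% and 68.8% of circRNAs. It was negative too for rings of 1 exon (-0.38), 2 to 5 exons (-0.39) and 6 or more exons (-0.49).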

How the data were processed

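Per the labels' protocols, each library began with 1 µg of liver total RNA, ribosomal RNA was removed and strands were marked; no digestion of linear RNA is named. The deposited table holds back-splice read counts and non-junction read counts per circRNA and library. HISAT2 and the GRCm38 (mm10) build are named in the submitters' processing notes, and the circRNA caller is not given in the sources used here. The 9 columns of normalized values were not used. Starts were raised by 1 to count from 1. Columns coded BC were taken as saline control by elimination, and library numbers are those of the columns. The lowest count above 0 was 2 in each library, so a listed 0 may stand for 1 read.

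Counts were tested with edgeR 4.0.16 (quasi-likelihood F test, TMM scaling, 8 libraries) in R 4.3.3, with Benjamini-Hochberg adjustment and a threshold of 0.05. Library size was the whole circRNA total for back-splice reads, and the sum over the tested sites for non-junction reads. The SE is the log2 fold change over the root of F. Ratios, log2 of (back-splice + 0.5) over (non-junction + 0.5) at sites with at least 10 reads in each of 8 libraries, were tested with limma 3.58.1. Shares per library were tested by exact permutation over libraries. The scripts were tested on simulated data. Named circRNAs were those past the threshold plus the smallest p up to 20, 8 of each direction for non-junction reads, the 8 most abundant, and the 3 most abundant of each list, some of which are not reported here. Members and lists were chosen with earlier results of these data known. Alternatives were control 3 put back, other scalings, filters and tools (DESeq2 1.42.0, limma-voom), a replicate block and each library left out. Without molecular identifiers, reads are not independent molecules.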

Additional observations from a re-analysis of the deposited data

How the results depend on the processing

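Control 3 decided most. Put back, it left 1 circRNA called (Epha2), 3 host genes, 0 ratios (6 at an unadjusted p under 0.05) and 0 non-junction sites (of 383 testable, 42 at an unadjusted p under 0.05, edgeR). It turned the circular share difference to 17.9 percentage points and that of 1-exon rings to -0.165. It moved the median log2 fold change of all circRNAs to 0.13, of rings of 2 to 5 exons to 0.14, of 6 or more exons to -0.042, and of the sinusoidal, stress, inflammation and chromatin lists to 0.21, -0.0449, -0.12 and 0.30. Without TMM scaling the median of all was 0.06 and that of chromatin regulators 0.20. APAP and control libraries alone called 4 circRNAs, 3 host genes, 26 non-junction sites and 0 ratios by limma (107 at an unadjusted p under 0.05). No filter called 14 of 11283 circRNAs. Limma-voom called 6 host genes, and at least 5 reads in 3 libraries called 5. At least 20 reads called 0 ratios (116 unadjusted). The digits kept by the spreadsheet, chosen after seeing the data, called 59 non-junction sites and 0 ratios (129 unadjusted). DESeq2 called 12 circRNAs, 11 host genes and 39 non-junction sites, but gave no adjusted p for 778 circRNAs, 46 host genes and 147 sites. Leaving out 1 library at a time called 5 to 8 circRNAs, 4 to 10 host genes, 0 to 1 ratios and 10 to 32 non-junction sites, with 10 without control 1 and 17 without control 2. Not all of these were calls of the main fit. Without APAP 3, 5 of 7 circRNAs and 19 of 27 non-junction sites were, while without dmPGE2+APAP 1 all 8 circRNAs and all 27 sites were. With 1 library left out, the share of 1-exon rings differed by -0.0566 (without control 1) to 0.218 percentage points. The cause of these shifts was not tested. Deviations from the group mean of same-numbered APAP and control libraries had correlations of -0.011 and -0.012. The deviations of control 1 and 2 mirror each other, so these values cannot tell whether the numbers pair libraries. With a replicate block 6 circRNAs, 4 host genes, 23 non-junction sites and 0 ratios (88 unadjusted, limma) passed. Among single named values 1288 alternatives were counted as the same, 31 lost the call, 10 gained it and 21 moved. Some rings with values near 0 changed sign with control 3 put back. The log2 fold change went from -0.07 to 0.23 for Gigyf2 and from -0.09 to 0.12 for Ttc39c.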

Other observations

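Outside the 1487 circRNAs, 70 of the 11312 in the table were read in all 3 APAP libraries and listed at 0 in control 1 and 2. The ring with the most reads came from Neat1, a nuclear long non-coding RNA, with 36, 53 and 39 reads in APAP. Pde5a, a phosphodiesterase gene, had rings with 27, 24 and 14 reads (novel_circ_0009075) and 24, 15 and 14 reads (mmu_circ_0001167) in APAP. A ring of Pip5k1b, a phosphoinositide kinase, had 16, 17 and 16 reads, and one of Prr5l 12, 12 and 25. Rings of Pde4d, Sfpq and Nap1l4 had 10, 15 and 17, 15, 10 and 16, and 11, 14 and 10 reads in APAP.

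In the other direction, 245 of the 11312 circRNAs were listed at 0 in all 3 APAP libraries and read in control 1 and 2, which hold more back-splice reads. This rule asks for reads in control 1 and 2 alone, and the first rule for reads in all 3 APAP libraries. The counts of the 2 directions therefore cannot be set against each other. Rings of the chromatin genes Ash1l and Smarca2 had 0 reads in APAP, against 22 and 24 and 21 and 24 reads in control 1 and 2. A ring of Rxra, the partner of many nuclear receptors, had 0 in APAP, against 18 and 18 in control 1 and 2, and a second ring of Acsm1 (novel_circ_0012727) had 0 in APAP, against 25 and 17. These circRNAs were chosen for their zeros after their values were seen, and no test was made.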
